A study of Mus musculus with 2 samples.

Results

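The genes described are 10 members of the cytokine feedback circuit around Stat transcription factors, out of 32285 genes in the matrices. They are the feedback inhibitors Cish, Socs1, Socs2 and Socs3, the kinases Pim1 and Pim2, the repressor Bcl6, and the factors Stat3, Stat5a and Stat6. Each was taken by its gene symbol, which matched 1 row in both libraries, and all 10 were detected in both. They were selected on their UMI counts by cell class and library, so their levels and differences are given as descriptions.

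Cytokines bind receptors that carry Jak kinases, and these phosphorylate Stat factors, which then enter the nucleus and switch on target genes. Cish and the Socs genes are among those targets, and their proteins bind receptors or Jak kinases and shut the signal down. Pim1 and Pim2 are also induced by Stat factors and encode serine/threonine kinases that favour survival and growth, while Bcl6 encodes a repressor that can occupy many of the sites that Stat factors bind. In lung these genes are known to respond to interleukin 6, granulocyte and granulocyte-macrophage colony-stimulating factors, interleukin 2 and the type 2 cytokines.

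Whole lung of C57BL/6 mice with the SP-CI73T mutation in surfactant protein C was lavaged, perfused and digested with collagenase D, and single cells were sequenced from their 3′ ends. There were 2 libraries, both from mutant mice, 1 titled injured and 1 titled control. The design compares steady state with 14 days after injury. Tamoxifen, given once by gavage at 175 mg/kg in corn oil, cuts out a neomycin cassette so that more of the mutant protein is made; surfactant protein C is a product of alveolar type 2 cells. The treatment tags run against the titles: the injured library is tagged untreated and the control library tamoxifen treated. Groups here follow the titles, and every direction below rests on them. Age, sex and the number of animals per library are not given in the sources used here.

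With 1 library per group there was no replicate and no test. A level is the UMI count (unique molecules) of a gene per 1000000 UMIs of the library or cell class, abbreviated CPM. Intervals are exact 95% intervals for counts or for ratios of counts and cover counting error only. A gene is called higher or lower in the injured library when it differed by 1.5-fold or more and had at least 50 UMIs over both libraries. These calls describe 2 libraries and not the condition.

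The 2302 cells of the injured library held 19852778 UMIs and the 2298 cells of the control library 15983025, with medians of 3266.5 and 4482.5 UMIs per cell. The libraries shared 1 barcode. The 26 clusters were made without the 10 genes and named from marker genes. The 10 cell classes with at least 30 cells in each library were compared, and levels are given for classes with at least 20 cells. Some classes were made of different clusters in the 2 libraries. Alveolar macrophage-like cells lay mainly in cluster 4 in the injured library (299 of 414 cells) and in cluster 3 in the control library (310 of 434). Neutrophil-like cluster 0 held 426 injured and 4 control cells, and cluster 7 held 161 and 121. Interstitial macrophage-like cells (285 and 1) and mature dendritic cell-like cells (98 and 9) had too few control cells to compare. The eosinophil markers named no cluster.

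Promoter sequences of 9 of the 10 genes were found in the RefSeq table for GRCm38.p6, with 12 start sites. They were searched from 250 bases before to 50 bases after each start for TTCNNNGAA, the palindromic core that Stat factors bind, which reads the same on both strands. Matches lay at 4 start sites of 3 genes, Cish, Socs3 and Bcl6. Of 32851 promoters in the table, 8.30% held the motif, 0.457% held at least 2 copies and 0.0335% at least 3. The form with 4 bases between TTC and GAA was in 6.95% of promoters and in none of the 12 start sites. The sequences with matches are shown because they are the members with a match, and the matches are in capitals. They run 5′ to 3′ on the gene's strand. For Cish 30 bases around the start are printed, and for the others the 250 bases before it.
Cish, chr9:107296654-107296683, plus strand: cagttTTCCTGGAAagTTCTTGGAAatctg
Socs3, chr11:117969367-117969616, minus strand: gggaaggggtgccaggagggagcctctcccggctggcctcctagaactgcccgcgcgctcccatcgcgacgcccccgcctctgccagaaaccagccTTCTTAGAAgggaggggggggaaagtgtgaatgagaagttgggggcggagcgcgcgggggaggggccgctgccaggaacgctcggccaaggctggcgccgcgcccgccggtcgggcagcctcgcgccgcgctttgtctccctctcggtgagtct
Bcl6 start 1, chr16:23988853-23989102, minus strand: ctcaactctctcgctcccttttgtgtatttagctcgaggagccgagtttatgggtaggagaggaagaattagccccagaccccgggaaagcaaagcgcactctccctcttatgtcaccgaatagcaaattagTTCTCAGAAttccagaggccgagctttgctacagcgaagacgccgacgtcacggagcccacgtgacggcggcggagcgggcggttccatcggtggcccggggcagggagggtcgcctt
Bcl6 start 2, chr16:23981284-23981533, minus strand: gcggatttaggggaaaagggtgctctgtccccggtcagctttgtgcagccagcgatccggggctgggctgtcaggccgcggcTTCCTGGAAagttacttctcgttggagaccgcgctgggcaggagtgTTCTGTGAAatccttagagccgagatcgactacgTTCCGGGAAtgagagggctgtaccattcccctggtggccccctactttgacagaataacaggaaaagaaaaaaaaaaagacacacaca
The Cish pair is separated by 2 bases and lies in the annotated 5′ untranslated region of a Cish transcript. A match is a match of letters, and binding was not measured here. In GENCODE M21 (GRCm38) Cish lies at chr9:107296026-107302784 and overlaps the antisense genes Gm17040 and Gm17041. Stat3 (chr11:100885098-100939540) and Stat5a (chr11:100859351-100885169) lie on opposite strands and share 72 bases, and Pim1, Bcl6 and Stat6 also overlap a gene on the other strand. Whether counting used strand is not given in the sources used here, and the part of reads from these overlaps in the counts was not tested.

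Over the whole libraries Socs2, Cish, Socs3 and Stat3 were higher in the injured library, Pim2 was lower, and Socs1, Pim1, Bcl6, Stat5a and Stat6 were neither. So 4 of 10 genes were higher and 1 lower, where 19.4% of the 13075 genes with enough counts were higher and 14.2% lower. Since the members were picked with these values known, nothing is read from that share. Socs2 stood at 124 CPM (95% interval 119 to 129) in the injured library and 49.2 (45.9 to 52.8) in the control library, a ratio of 2.51 (2.32 to 2.72). Socs3 stood at 153 CPM against 74.6, a ratio of 2.05 (1.92 to 2.20). Stat3 stood at 248 CPM against 127, a ratio of 1.94 (1.84 to 2.05). In these 3 genes the intervals of the libraries lay far apart. Cish stood at 71.2 CPM against 37.3, a ratio of 1.91 (1.73 to 2.11), whereas Pim1 was nearly level at 361 and 343 CPM. Pim2, the member with the fewest UMIs (64 and 79), was 1.53-fold lower (1.09 to 2.17). With the compared classes given the same shares of UMIs in both libraries, an alternative chosen after seeing the data, the log2 ratio of Pim2 turned to 0.19, and those of Cish, Socs2, Socs3 and Stat3 were 0.62, 0.81, 0.75 and 0.93.

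The class with most of a gene's molecules differed between the libraries for Cish, Socs2, Socs3, Pim1 and Bcl6 and was the same for Socs1, Pim2, Stat3, Stat5a and Stat6. Of the Cish UMIs, 20.3% came from cDC2-like cells (type 2 conventional dendritic cells), 16.8% from neutrophil-like cells and 16.1% from T cell or ILC2-like cells in the injured library. In the control library 55.4% came from alveolar macrophage-like cells and 20.6% from endothelial-like cells. For Socs3 the main source was endothelial-like cells in the control library, with 40.9% of its UMIs, and neutrophil-like cells in the injured library, with 29.6%. Socs1 kept 1 main source, T cell or ILC2-like cells, with 42.5% and 49.3% of its UMIs. Neutrophil-like cells made up 25.5% of injured and 5.44% of control cells, and 6.13% and 2.13% of the UMIs.

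**Figure D1:**
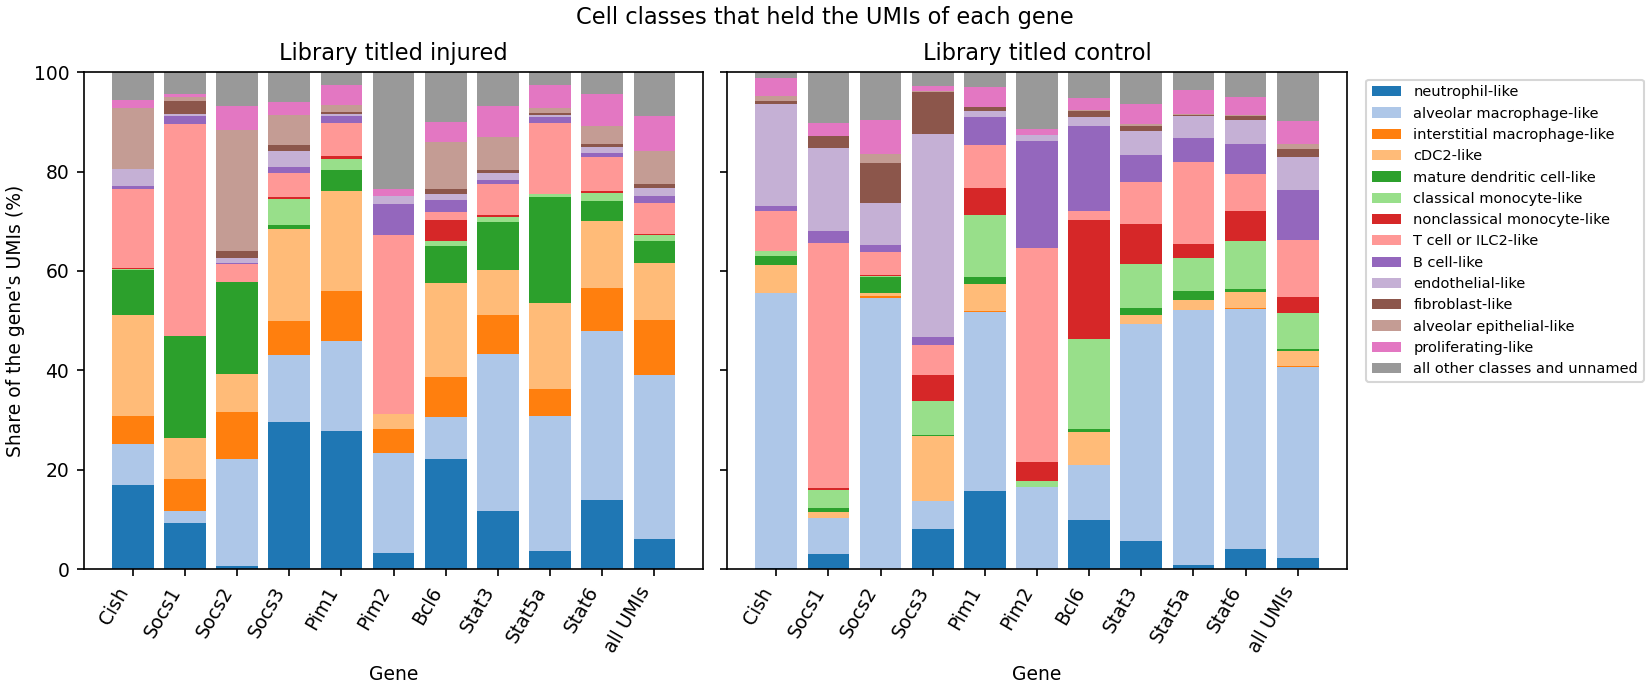
Stacked bars give the share of each gene's UMIs, in percent, that came from each cell class in the library titled injured (left) and titled control (right), with all UMIs as the last bar. Cish came mainly from alveolar macrophage-like cells in the control library (55.4%) and from several immune classes in the injured library.

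**Figure D2:**
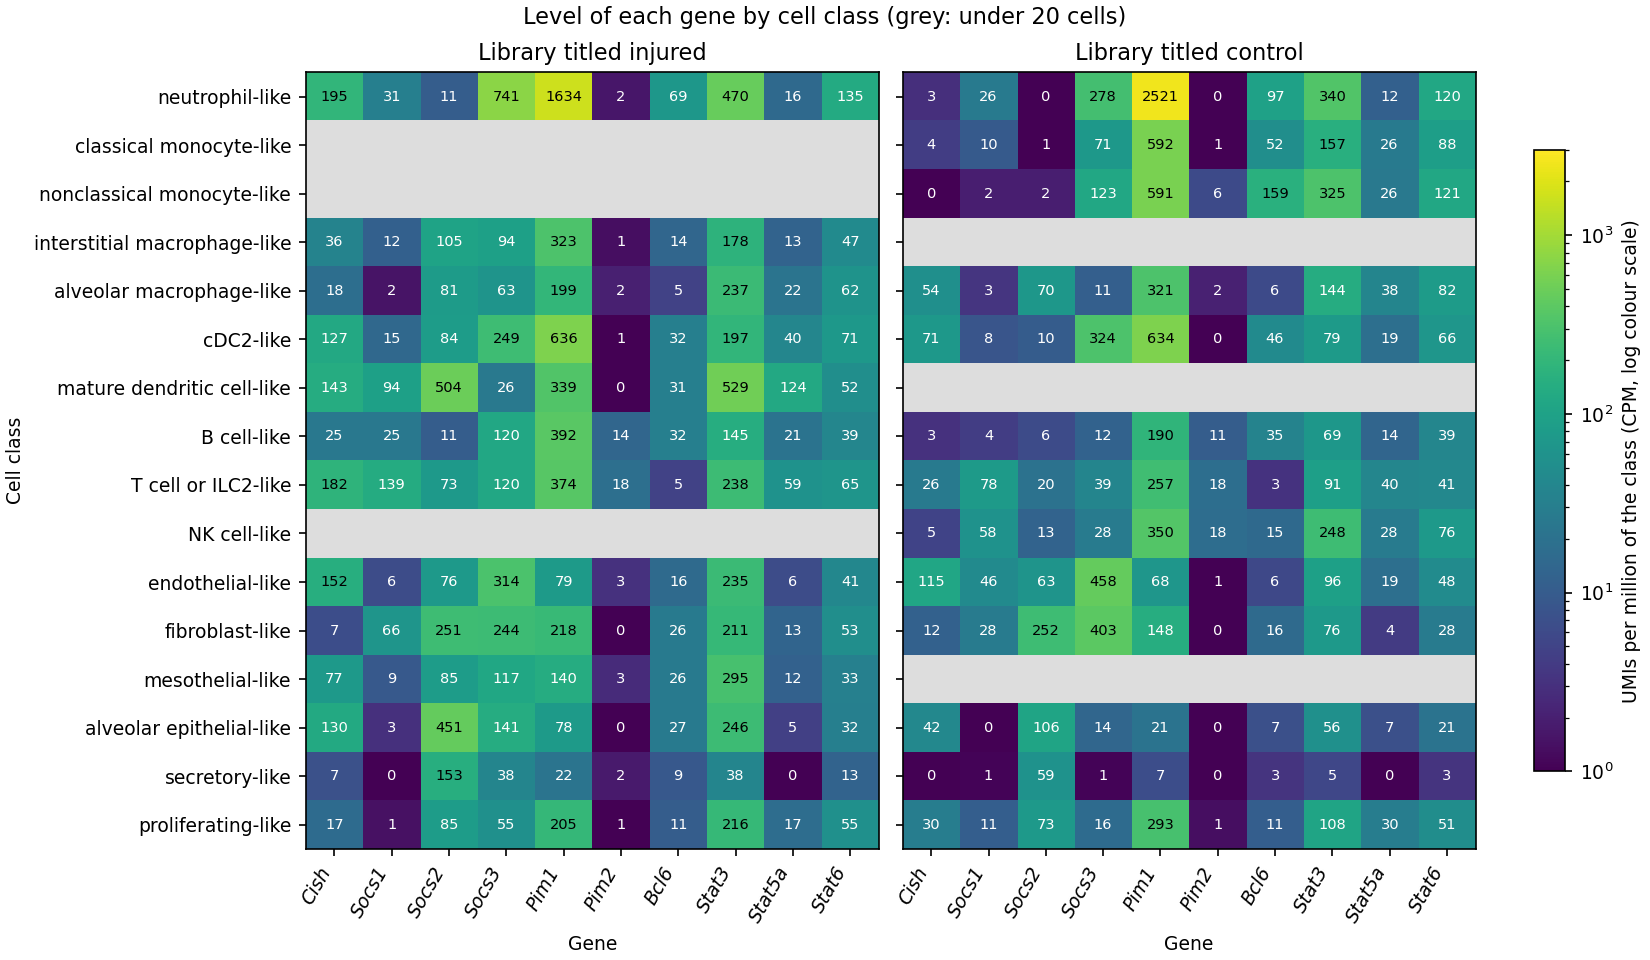
Heat maps of the level of each of the 10 genes in 16 cell classes, in CPM on a logarithmic colour scale with the value printed in each cell, and grey where a class had under 20 cells. Neutrophil-like cells had the highest Pim1 in both libraries, at 1634 CPM (injured) and 2521 CPM (control).

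Within the 10 compared classes, 58 of the 100 pairs of gene and class had enough counts. Of these 27 were higher, 6 lower and 25 neither, against 26.1% higher and 14.5% lower among 48233 pairs of all genes. Stat3 was higher in 8 of its 9 classes and Socs3 in 6 of 9, while Pim1 was higher in 2 and lower in 2 of 9. The whole transcriptome was shifted in some classes, with a median log2 ratio over all genes of 0.74 in alveolar epithelial-like, 0.53 in neutrophil-like and 0.35 in T cell or ILC2-like cells. In those 3 classes 54.9%, 47% and 34.5% of genes were called higher, so a call there says little on its own. The share called lower was 4.53% in T cell or ILC2-like and 19.9% in proliferating-like cells.

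**Figure D3:**
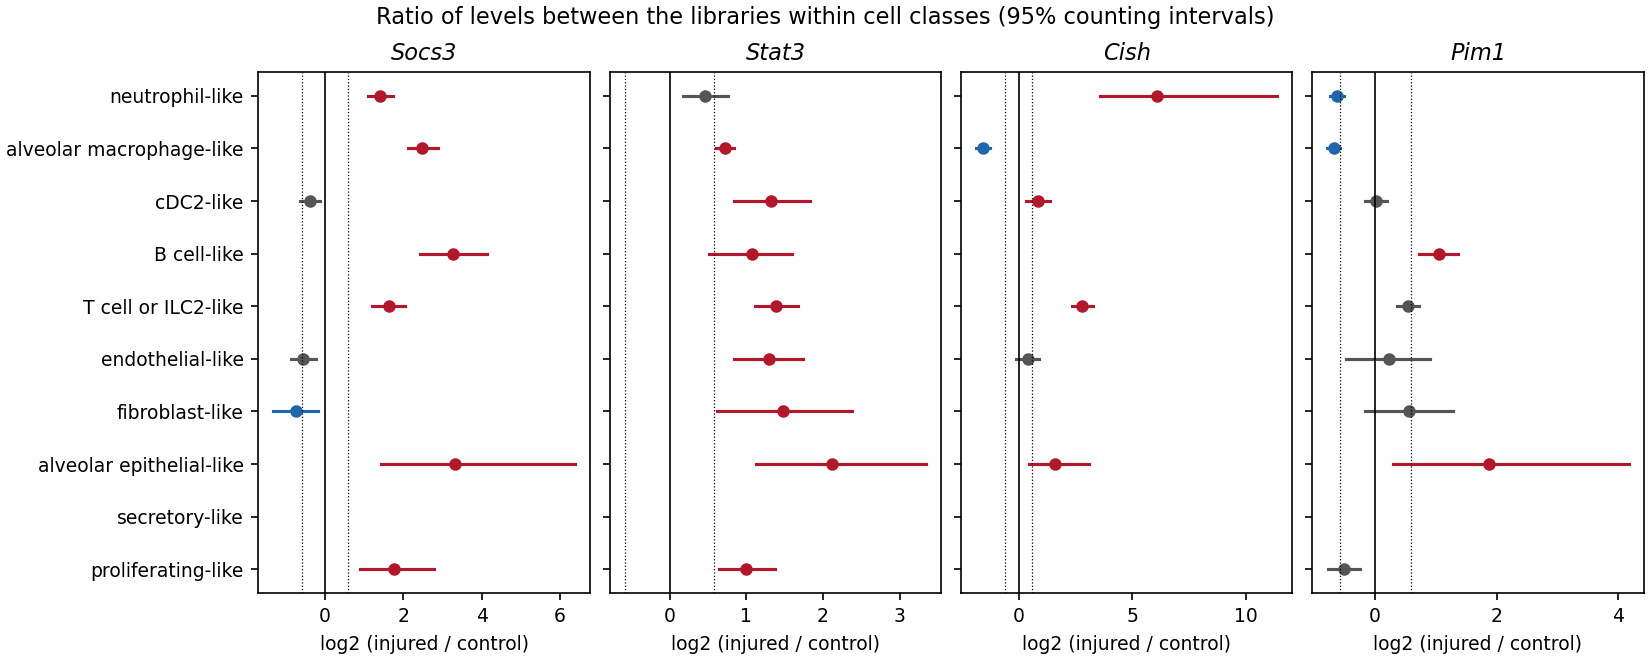
Points give the log2 ratio of the level in the injured library to that in the control library for Socs3, Stat3, Cish and Pim1 in each compared class, with 95% counting intervals, and dotted lines mark 1.5-fold. Red is called higher, blue lower and grey neither, a missing point means fewer than 50 UMIs, and the axes differ in range. Stat3 lies to the right of 0 in 9 of 9 classes, whereas Cish lies at -1.56 in alveolar macrophage-like and 6.06 in neutrophil-like cells.

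Cish encodes the inhibitor that is best known as a target of Stat5 and that dampens interleukin 2 and granulocyte-macrophage colony-stimulating factor signals. It showed the widest spread between classes. Neutrophil-like cells held 238 Cish UMIs in the injured library, 195 CPM (171 to 222), and 1 UMI in the control library, 2.93 CPM (0.0742 to 16.3). The ratio was 66.7 with a counting interval of 11.9 to 2645, where 47% of genes were called higher in this class. T cell or ILC2-like cells stood at 182 CPM (159 to 207) against 26.4 (19.5 to 34.9), a ratio of 6.88 (5.03 to 9.57). In both classes the intervals of the libraries lay apart. The neutrophil-like clusters differed within the injured library, as given below, and no background level was estimated. In cDC2-like cells the ratio was 1.79 (1.25 to 2.64) from 127 and 70.6 CPM, and in alveolar epithelial-like cells 3.06 (1.38 to 8.45) from 130 and 42.4 CPM. The last value rests on 6 control UMIs and on classes of unlike depth, and within cluster 19 alone the levels were 134 and 111 CPM.

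Alveolar macrophage-like cells ran the other way for Cish. They stood at 18.2 CPM (15.1 to 21.8) in the injured library and 53.6 CPM (48.0 to 59.7) in the control library, a ratio of 0.340 (0.273 to 0.420), where 19.2% of genes were called lower in this class. The cells came from different clusters: cluster 4 stood at 18.3 CPM in the injured and cluster 3 at 54.3 CPM in the control library. Cluster 8, which held 114 injured and 124 control cells of low depth, had only 3 and 6 Cish UMIs. Endothelial-like cells had the highest control level, 115 CPM (95.9 to 138), and 152 CPM (112 to 202) in the injured library, with overlapping intervals. In the injured library the neutrophil-like, T cell or ILC2-like and endothelial-like levels were the top 3 and each interval overlapped the next.

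In the injured library nearly all neutrophil Cish lay in 1 of the 2 neutrophil-like clusters. Cluster 0, with Csf1, Cd177 and Il1r2 among its leading genes, held 234 Cish UMIs in 129 of 426 cells, 281 CPM (246 to 320). Cluster 7, led by Retnlg, held 4 in 161 cells, 10.4 CPM (2.83 to 26.6), and its control cells 1 UMI in 121 cells, 3.15 CPM (0.0796 to 17.5). The level in cluster 0 was 27.1 times (10.4 to 100.3) that in cluster 7 of the same library, where 48% of all genes were called higher. Cluster 0 was the shallower, with a median of 1944.5 UMIs per cell against 2265. Secretory-like cells of the injured library held a Cish UMI in 3.90% of cells at a median of 2395 UMIs, and cluster 7 held one in 4 of 161 cells. Free RNA was not estimated, and its part in the Cish of cluster 0 was not tested.

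No single cell carried more than 6 Cish UMIs in cluster 0, so the level was spread over many cells. Csf1, a macrophage growth factor, and Siglecf, a lectin known from eosinophils and alveolar macrophages, were also high in this cluster, at 1026 and 269 CPM against 104 and 7.78 CPM in cluster 7. Among cells thinned to 1000 UMIs, Cish was found in 21.2% (15.2 to 28.2) of 165 cells with Csf1 and in 18.7% (13.8 to 24.5) of 219 without it. It was found in 24.7% (16.0 to 35.3) of 85 cells with Siglecf and in 18.4% (14.2 to 23.3) of 299 without. The intervals overlapped for both partners. All 8 neutrophil markers were present in cluster 0 of the injured library, with a summed level of 70554 CPM against 137736 in cluster 7. The alveolar macrophage markers, which include Siglecf, summed to 2968 CPM in cluster 0 and 495 CPM in cluster 7, with Ear1 at 0 in cluster 0. The 5 eosinophil markers summed to 24.0 CPM, with Epx and Il5ra at 0, and the 6 mast cell or basophil markers to 82.9 CPM. Without the 10 cells that held any of these 11 markers' UMIs, Cish stood at 283 CPM (248 to 322). The 4 control cells of cluster 0 had no Csf3r UMI, all 6 mast cell or basophil markers, and no Cish UMI.

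**Figure D4:**
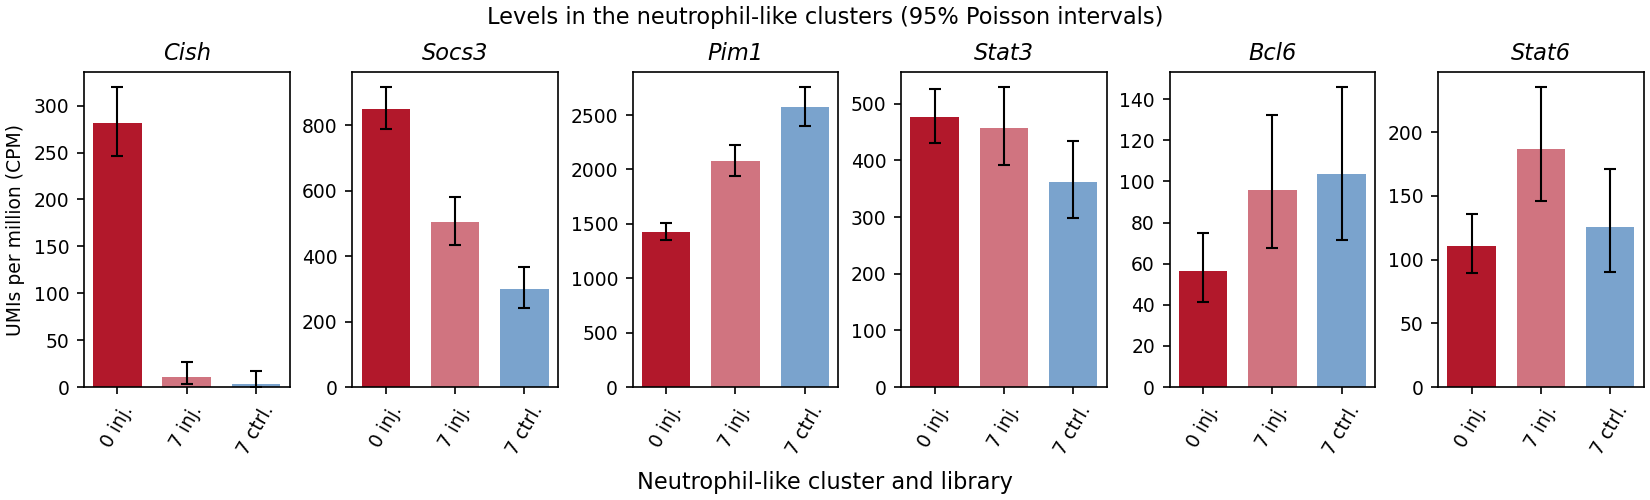
Bars give the level in CPM, with 95% Poisson intervals, of 6 genes in neutrophil-like cluster 0 of the injured library and in cluster 7 of the injured and control libraries, and the vertical axes differ in range. Cish reached 281 CPM in cluster 0 against 10.4 and 3.15 CPM in cluster 7, while Pim1 was lowest in cluster 0 at 1429 CPM.

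Socs3 encodes the inhibitor of signals through the interleukin 6 receptor chain gp130 and the receptor for granulocyte colony-stimulating factor. It was higher in B cell-like, T cell or ILC2-like, alveolar epithelial-like, alveolar macrophage-like, neutrophil-like and proliferating-like cells and lower in fibroblast-like cells. Neutrophil-like cells had 741 CPM (693 to 791) in the injured and 278 CPM (225 to 340) in the control library, a ratio of 2.66 (2.15 to 3.32). Among the injured classes with at least 20 cells this was the top level, and its interval lay apart from the next. The 19 injured classical monocyte-like cells, too few to be ranked, held 159 Socs3 UMIs among 207622. Within cluster 7, which held cells of both libraries, the levels were 503 CPM (435 to 579) and 299 CPM (242 to 365), and cluster 0 stood at 851 CPM (789 to 916). The ratio within cluster 7 was 1.68 (1.31 to 2.18), and 19.7% of genes were called higher in cluster 7.

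Alveolar macrophage-like cells had 62.9 CPM of Socs3 (57.0 to 69.3) in the injured library and 11.2 CPM (8.72 to 14.2) in the control library, a ratio of 5.62 (4.34 to 7.36), where 11.2% of genes were called higher. Cluster 8 alone gave 61.4 and 10.3 CPM, from 11 and 2 UMIs. B cell-like cells had 120 CPM (83.2 to 168) against 12.4 CPM (7.58 to 19.2), a ratio of 9.67 (5.41 to 17.7), where 16.4% of genes were called higher. Proliferating-like cells stood at 55.3 CPM against 16.2 CPM, with a log2 ratio that turned from 1.77 to -0.75 when all cells counted equally. The B cell value rested on 34 UMIs in 12 of 58 cells, 10 of them in 1 cell. A higher level was not seen in every class: cDC2-like cells stood at 249 CPM against 324, and endothelial-like cells at 314 against 458, neither called. Fibroblast-like cells stood at 244 CPM (172 to 336) against 403 CPM (328 to 490), 1.65-fold lower (1.12 to 2.48), where 27.9% of genes were called lower. When all cells counted equally, the log2 ratio of that class was 0.11 in place of -0.73.

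Neutrophil RNA was also found in other cells, and its part in these Socs3 levels was not tested. The 8 neutrophil markers in injured B cell-like cells summed to 0.0731% of their level in neutrophil-like cells, a share that would carry 0.541 CPM of Socs3 where 120 CPM was measured. In injured alveolar macrophage-like cells the share was 0.585%, which would carry 4.33 CPM of 62.9 CPM. Of the 16 dissociation and immediate early genes, which respond to tissue digestion as Socs3 also can, 15 were tested in alveolar macrophage-like cells. Of these 11 were lower, 1 was higher and their median log2 ratio was -1.31, where 19.2% of genes were called lower and 11.2% higher. In alveolar epithelial-like cells 12 of 15 were higher with a median of 1.96, where 54.9% of genes were called higher. In B cell-like cells 5 of 12 were higher and none lower, where 16.4% of genes were called higher. Fibroblast-like cells had 7 of 14 lower and 2 higher (27.9% of genes lower), and proliferating-like cells 10 of 14 and 1 (19.9%). Neutrophil-like cells had 4 of 14 lower and 1 higher (9.98% of genes lower), and T cell or ILC2-like cells 1 of 12 and 1 (4.53%). The part of digestion in the Socs3 values of these classes was not tested.

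Socs2 encodes the inhibitor of growth hormone receptor signalling. Mature dendritic cell-like cells of the injured library had 504 CPM (459 to 553) and alveolar epithelial-like cells 451 CPM (415 to 488), with overlapping intervals, above fibroblast-like cells at 251 CPM (177 to 344). In the control library fibroblast-like cells were highest at 252 CPM (193 to 322), so this class was level between the libraries. Alveolar epithelial-like cells had 106 CPM (59.3 to 175) in the control library, a ratio of 4.25 (2.56 to 7.65), where 54.9% of genes were called higher. Median depth in the class was 8136 UMIs per cell for injured cells and 1213 for control cells. In cluster 19, which carries markers of type 1 and type 2 cells, Socs2 stood at 460 CPM (423 to 499) in 82 injured cells and 73.8 CPM (20.1 to 189) in 20 control cells. The cDC2-like cells had 83.9 CPM against 10.4 CPM, a ratio of 8.07 (3.40 to 25.2), and secretory-like cells 153 CPM against 59.1 CPM, a ratio of 2.59 (1.82 to 3.72), where 30.1% of genes were called higher; when all cells counted equally the log2 ratio of secretory-like cells was 0.32, and 28 of the 85 injured UMIs came from 1 cell. Alveolar macrophage-like cells, the source of 54.5% of control Socs2 UMIs, stood at 80.8 and 69.7 CPM and were not called.

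Socs1 encodes the inhibitor of interferon and interleukin 4 signals that binds Jak kinases directly. T cell or ILC2-like cells had 139 CPM (119 to 162) in the injured and 78.1 CPM (65.9 to 91.9) in the control library, a ratio of 1.78 (1.42 to 2.24), where 34.5% of genes were called higher. Scaled by the median ratio over genes in place of totals, its log2 ratio was 0.48 and below the threshold. In the injured library this level stood apart from the next class, mature dendritic cell-like cells at 93.7 CPM (74.8 to 116). Endothelial-like cells had 2 UMIs, 6.35 CPM (0.769 to 22.9), against 49 UMIs, 46.0 CPM (34.0 to 60.8), 7.24-fold lower (1.90 to 61.5), where 16.7% of genes were called lower. Of the control UMIs 35 came from cluster 13, which had no injured cell. In cluster 2, shared by both libraries, Socs1 had 0 UMIs in 67 injured cells and 14 in 281 control cells, and with cells thinned to 1000 UMIs the log2 ratio of the class was 0.14. In the same cluster 2, Cish stood at 145 CPM against 73.9 CPM and Stat3 at 194 CPM against 69.1 CPM, both called higher, where 17.6% of genes were.

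Lymphocytes were divided further because the T cell or ILC2-like class held several kinds of cell at unlike shares. In cluster 9 of the class Cish stood at 244 CPM (213 to 278) against 94.0 CPM (68.6 to 126), a ratio of 2.59 (1.88 to 3.66), while Socs1 was level at 149 and 146 CPM; there 5 of 8 tested members were higher and none lower, against 24.6% and 8.01% of genes. In cluster 5 Socs3 stood at 169 CPM (128 to 218) against 29.0 CPM (20.7 to 39.5), a ratio of 5.82 (3.82 to 8.93), where 22.4% of genes were called higher. In the finer division, an unnamed sub-cluster with Ccr7 and Lef1 among its leading genes had 32 injured and 136 control cells, and regulatory T cell-like cells numbered 45 and 25. Cish in regulatory T cell-like cells stood at 249 CPM against 41.1 CPM, from 89 and 7 UMIs, a ratio of 6.06 (2.82 to 15.5). The unnamed sub-cluster with Cd8a and Cxcr3, which held the most injured cells (78, with 22 control cells), had level Cish at 72.6 and 76.9 CPM, from 29 and 7 UMIs. ILC2-like cells had 337 CPM (232 to 473) from 14 cells and 198 CPM (118 to 314) from 17 cells, with overlapping intervals. The gamma delta T cell-like cells of the injured library had 357 CPM (280 to 449). The sub-cluster with Ccr7 and Lef1 had 21.0 and 5.38 CPM of Cish, from 3 and 4 UMIs.

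Socs3 had another order among the lymphocytes. The Lef1 and Ccr7 sub-cluster had the highest injured level, 273 CPM (194 to 373), against 20.2 CPM (11.3 to 33.3) in the control library, a ratio of 13.5 (7.28 to 26.4). ILC2-like cells had 30.6 CPM from 3 UMIs in the injured library and no Socs3 UMI in the control library, where 33.1 CPM is the level that 3 UMIs would give. Regulatory T cell-like cells came next for Socs3, at 157 CPM (118 to 203) against 99.8 CPM (58.1 to 160), a ratio of 1.57 (0.900 to 2.88), and were thus among the higher sub-clusters for both Cish and Socs3. Stat3 in regulatory T cell-like cells stood at 389 CPM (327 to 459) against 93.9 CPM (53.7 to 152), a ratio of 4.14 (2.46 to 7.45), whereas Pim1 in these cells was level at 669 and 692 CPM. Socs2 was highest in ILC2-like cells, at 388 CPM (274 to 532) and 121 CPM (60.5 to 217), but 23 of the 38 injured UMIs came from 1 cell. Socs1 had its top lymphocyte level in control ILC2-like cells, 320 CPM (214 to 459) against 133 CPM (70.6 to 227) in injured ones.

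**Figure D5:**
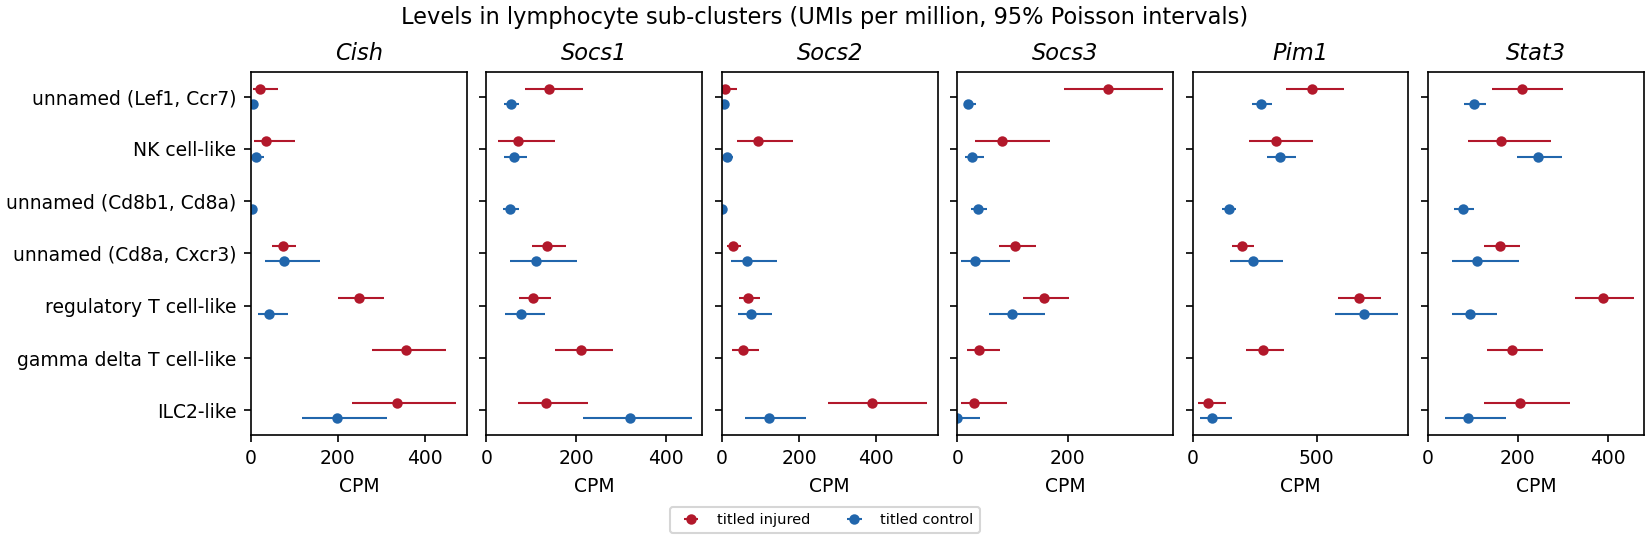
Points give the level in CPM with 95% Poisson intervals of 6 genes in 7 lymphocyte sub-clusters, red for the library titled injured and blue for the library titled control, and sub-clusters with under 10 cells in a library have no point. Cish was highest in gamma delta T cell-like and ILC2-like cells (357 and 337 CPM), and Socs3 in the sub-cluster with Ccr7 and Lef1 among its leading genes (273 CPM).

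Pim1 and Pim2 encode kinases that phosphorylate survival and cell cycle proteins. Pim1 was highest in neutrophil-like cells in both libraries, at 1634 CPM (1563 to 1708) in the injured and 2521 CPM (2355 to 2695) in the control library, 1.54-fold lower (1.42 to 1.67) where 9.98% of genes were called lower. Within cluster 7 the levels were 2078 CPM (1936 to 2227) and 2573 CPM (2400 to 2756), 1.24-fold lower (1.12 to 1.37) and not called. Cluster 0 was lower again at 1429 CPM (1349 to 1512), so Pim1 and Cish ran in opposite directions across the neutrophil-like clusters. Alveolar macrophage-like cells had 199 CPM (189 to 211) against 321 CPM (307 to 335), a ratio of 0.621 (0.579 to 0.667), which was no longer called under that other scaling (log2 -0.56) or with cells thinned to 1000 UMIs (-0.48). B cell-like cells had 392 CPM (323 to 472) against 190 CPM (169 to 212), a ratio of 2.06 (1.65 to 2.57), with 29 of the 111 injured UMIs in 1 cell. The cDC2-like cells were level at 636 and 634 CPM. Pim1 was thus nearly equal over the libraries while single classes differed in both directions, and when all cells counted equally its log2 ratio over the libraries was 0.81. Pim2 passed the count minimum only in T cell or ILC2-like cells, at 18.4 CPM (11.7 to 27.6) and 18.3 CPM (12.7 to 25.6).

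Bcl6 represses genes that Stat factors activate and is best known in germinal centre B cells and follicular helper T cells. Its highest level was in nonclassical monocyte-like cells of the control library, 159 CPM (126 to 198), with 10 such cells in the injured library. Neutrophil-like cells followed with 96.7 CPM (66.6 to 136) in the control and 69.0 CPM (55.0 to 85.4) in the injured library, with overlapping intervals. Across the clusters of the injured library, Bcl6 stood at 56.5 CPM (41.5 to 75.1) in cluster 0 and 96.0 CPM (67.6 to 132) in cluster 7, 1.70-fold lower (1.07 to 2.67) in the cluster with high Cish. B cell-like cells stood at 31.8 and 35.4 CPM. Bcl6 was called in none of its 4 classes. The interval of the nonclassical monocyte-like level overlapped that of control neutrophil-like cells. Classical monocyte-like cells of the control library stood lower, at 52.0 CPM (39.7 to 67.0).

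Stat3 transmits signals of the interleukin 6 and interleukin 10 families. It was higher in each tested class but neutrophil-like cells, with ratios from 1.65 (1.52 to 1.79) in alveolar macrophage-like to 4.35 (2.18 to 10.2) in alveolar epithelial-like cells. In alveolar macrophage-like cells it stood at 237 CPM (226 to 250) against 144 CPM (135 to 154), and with a coarser clustering (resolution 0.5) the log2 ratio of the class was -0.54. T cell or ILC2-like cells had 238 CPM (212 to 267) against 91.0 CPM (77.8 to 106), a ratio of 2.62 (2.16 to 3.18). Endothelial-like cells had 235 CPM (184 to 295) against 95.7 CPM (78.0 to 116), a ratio of 2.45 (1.79 to 3.34), where 16.6% of genes were called higher. In each of these classes the intervals of the libraries lay apart. Neutrophil-like cells had 470 CPM (432 to 510) against 340 CPM (281 to 408), the highest control level, with a ratio of 1.38 (1.13 to 1.70). The top injured level was in mature dendritic cell-like cells, 529 CPM (482 to 579), and its interval overlapped that of neutrophil-like cells. The control neutrophil-like interval overlapped that of nonclassical monocyte-like cells, at 325 CPM (277 to 379).

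Stat5a transmits interleukin 2, interleukin 7 and colony-stimulating factor signals, and Stat6 those of interleukins 4 and 13. Stat5a was highest in mature dendritic cell-like cells of the injured library, 124 CPM (102 to 149), apart from the next class. In alveolar macrophage-like cells it stood at 21.6 CPM (18.2 to 25.5) against 37.7 CPM (33.0 to 42.8), 1.75-fold lower (1.41 to 2.17), the same direction as Cish in these cells. In cDC2-like cells it stood at 39.7 CPM (31.9 to 48.8) against 18.7 CPM (8.55 to 35.5), a ratio of 2.12 (1.07 to 4.80), which with cells thinned to 1000 UMIs turned to a log2 ratio of -1.68. Stat6 was called in 1 of 7 classes, T cell or ILC2-like cells, at 64.8 CPM (51.5 to 80.5) against 41.5 CPM (32.7 to 51.8), a call lost under the other scaling (log2 0.29). Its highest injured level was in neutrophil-like cells, 135 CPM (115 to 157), and in the control library nonclassical monocyte-like and neutrophil-like cells stood at 121 and 120 CPM with overlapping intervals.

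The patterns of the genes over 26 profiles of class and library were compared by Pearson's r of log2(CPM + 10), as a description in which profiles share library and depth. Cish and Socs3 were weakly alike (0.39), Pim1 and Stat6 were the most alike pair of members (0.90), and Socs2 and Pim1 ran against each other (-0.52). Among 10283 other genes the closest to Cish was Inf2 (0.75), to Socs3 Midn (0.83) and Sbno2 (0.79), to Socs2 Dynll2 (0.85), to Pim1 Wipf1 (0.92) and to Stat3 Tmem127 (0.90). Sbno2, rank 2 for Socs3, is itself in the list of genes known to respond to Stat3. For the other members named here only the closest gene is given, so nothing is read from that overlap.

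Upstream of the members, 7 of 26 tested cytokine receptor chains were higher over the whole libraries and 3 lower, near the 19.4% and 14.2% of all genes, with a median log2 ratio of 0.04 against 0.07 for all genes. Il2ra, the alpha chain of the interleukin 2 receptor, stood at 27.6 CPM (25.3 to 30.0) against 3.75 CPM (2.86 to 4.83), a ratio of 7.35 (5.63 to 9.77), and the oncostatin M receptor Osmr had a ratio of 4.64 (3.48 to 6.30). The common gamma chain Il2rg was 2.74-fold lower (2.49 to 3.03). Of 7 tested ligands 2 were higher, Lif with a ratio of 2.79 (2.04 to 3.87) and Il6 with 1.66 (1.15 to 2.43), and 2 lower, Il27 and Il15. The kinase gene Jak2 was higher with a ratio of 3.24 (2.93 to 3.59), and 1 of 15 other inhibitors, Socs6, was higher with a ratio of 1.93 (1.65 to 2.26).

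Downstream, 6 of 10 genes known to respond to Stat3 were higher and none lower, where 19.4% of all genes were higher and 14.2% lower, with a median log2 ratio of 1.06 against 0.07 for all genes. Among them Saa3, an acute phase protein, had 1344 UMIs against 1, and Lrg1 a ratio of 6.02 (5.46 to 6.64). Of 11 genes known to respond to Stat6, 7 were higher and 1 lower, against the same shares of all genes, with a median of 1.23. Arg1, an arginine-degrading enzyme, had a ratio of 125 (102 to 155), and Fcer2a, the low-affinity IgE receptor of B cells, was 8.71-fold lower (6.79 to 11.3). Of 6 genes known to respond to Stat5, 2 were higher, Il2ra and the survival gene Bcl2l1 with a ratio of 2.17 (1.93 to 2.43). The cyclin Ccnd2 was lower, and the list's median of 0.07 equals that of all genes. All these counts are over the whole libraries. In neutrophil-like cells 3 of 9 tested genes known to respond to Stat3 were higher and 1 lower. In that class 47% of all genes were called higher and 9.98% lower. The list's median log2 ratio there was 0.18 against 0.53 for all genes. In fibroblast-like cells none of 3 was higher and 2, Junb and Cebpd, were lower, where 25.2% of genes were called higher and 27.9% lower. In each other compared class the median of the Stat3 list lay above that of all genes. Il2ra, Il4ra, Osm, Osmr and Junb stand in more than 1 of the lists given here and above, so their values count more than once. Junb is in the Stat3 list and among the dissociation and immediate early genes. The classes that hold most of several genes, such as B cells for Fcer2a, had unlike shares in the libraries.

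In neutrophil-like cells Cish differed most, and the genes named here were picked after their values were seen. The receptor chain Csf2rb stood at 658 CPM against 440 CPM and was not called. Within cluster 7 it stood at 449 CPM against 377 CPM. Jak2 stood at 372 CPM against 76.2 CPM, a ratio of 4.88, and Il4ra at 357 CPM against 90.9 CPM, a ratio of 3.93. Of 14 tested receptor chains in neutrophil-like cells 5 were higher and none lower, where 47% of genes were called higher. Their median log2 ratio was 0.530 against 0.527 for all genes. Of 4 tested Jak kinases and other Stat factors 1 was higher and 1 lower, with a median of -0.22. Of the 3 genes known to respond to Stat5 that were tested there, Bcl2l1 was higher and Ccnd2 lower, with a median log2 ratio of -0.06 against 0.53 for all genes. In T cell or ILC2-like cells Il2ra stood at 334 CPM against 23.7 CPM, a ratio of 14.1. Il2ra was a leading gene of cluster 9, which held 150 injured and 84 control cells of this class. Cluster 5 held the other 67 and 221, and the part of these unlike shares in the ratio was not tested. Of 15 tested receptor chains in the class 5 were higher and none lower, with a median log2 ratio of 0.41 against 0.35 for all genes. Of 5 tested genes known to respond to Stat5, 4 were higher, Il2ra, Bcl2, Bcl2l1 and Myc, where 34.5% of genes were called higher.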

How the data were processed

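Per the file headers, Cell Ranger 4.0.0 made the deposited matrices, which hold raw counts of UMIs for every gene in every barcode. The submitters' processing notes name further tools, DESeq2 (1.26.0 and 1.28.1), featureCounts (1.6.3) and STAR (2.7.2c), with no role stated. Groups were taken from the sample titles. The members and gene lists were chosen with earlier results of these data known.

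Cells needed at least 500 UMIs, 200 genes and at most 15% mitochondrial UMIs. Doublets, 44 in each library, were removed by their share of simulated neighbours. Leiden clustering (leidenalg 0.10.2, resolution 1, 30 principal components) used 2000 variable genes without the members. A cluster was named from at least 3 markers. Summed counts of each class and library were scaled to CPM, with exact Poisson intervals from scipy 1.17.1. The ratio and clustering steps were tested on simulated data. Cells of low depth limit class values: 276 injured and 340 control cells had under 1000 UMIs.

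Named genes are the 10 members and up to 4 called genes of each list by ratio (at most 2 per direction). Of the 3 genes most like each member in pattern, some are named. Other genes named were picked after their values were seen. The alternatives changed the scaling, thinning, weighting of cells, filters, clustering, count minimum and fold. A gene and a gene list examined with the pathway are not reported here.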

Additional observations from a re-analysis of the deposited data

Results flagged for a closer look

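In 5 genes the injured and control libraries differed in opposite directions in 2 cell classes, and none of these differences was tested, since each class has 1 library per group. For Cish the log2 ratio in neutrophil-like cells exceeded that in alveolar macrophage-like cells by 7.62. For Socs3 the log2 ratio in alveolar epithelial-like cells exceeded that in fibroblast-like cells by 4.04, and for Socs1 that in T cell or ILC2-like cells exceeded that in endothelial-like cells by 3.69. For Pim1 alveolar epithelial-like cells exceeded alveolar macrophage-like cells by 2.56, and for Stat5a cDC2-like cells exceeded alveolar macrophage-like cells by 1.89. The Cish value rests on 1 control UMI in neutrophil-like cells and the Socs1 value on 2 injured UMIs in endothelial-like cells. The Socs3 and Pim1 values rest on 2 and 3 control UMIs in alveolar epithelial-like cells. The Stat5a value rests on 9 control UMIs in cDC2-like cells. Pim1 in alveolar macrophage-like cells was no longer called with cells thinned to 1000 UMIs. The same thinning turned the log2 ratio of Socs1 in endothelial-like cells to 0.14 and that of Stat5a in cDC2-like cells to -1.68. Counting all cells equally turned that of Socs3 in fibroblast-like cells to 0.11. Under those alternatives the 2 classes no longer differed in opposite directions for the gene.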

How the results depend on the processing

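Of 774 log2 ratios recomputed under the alternatives, 679 stayed inside the 95% counting interval of the reported value, 88 left it and 7 changed sign. Of 436 recomputed ratios that were called, 411 kept their direction and call and 18 lost the call. At 2-fold in place of 1.5-fold, 2 members in place of 4 were higher over the whole libraries, and 2 pairs of gene and class in place of 6 were lower. The 1 lower member over the whole libraries, Pim2, became 0 with all cells counting equally, with cells thinned to 1000 UMIs, at 2-fold and with a mitochondrial limit of 25%. With a minimum of 10 counts, 11 pairs were lower. The shares of all genes at 2-fold and at 10 counts are not given here, so nothing is read from these counts. The log2 ratio of Pim2 over the libraries, -0.62, turned to 0.050 when thinned and to 0.19 at equal UMI shares of the compared classes. Thinning also turned Stat5a in cDC2-like cells from 1.09 to -1.68 and Socs1 in endothelial-like cells from -2.86 to 0.14. Counting all cells equally turned Socs3 from -0.73 to 0.11 in fibroblast-like and from 1.77 to -0.75 in proliferating-like cells, and resolution 0.5 turned Stat3 in alveolar macrophage-like cells from 0.72 to -0.54. The cause of these changes was not tested. Restrictions to single clusters, equal UMI shares and leaving out neutrophil-like cluster 0 were chosen after seeing the data. Over the whole libraries Cish stayed between 0.62 and 1.91 and Socs3 between 0.72 and 1.63. Cish in neutrophil-like cells ranged from 1.72, in cluster 7 alone with 4 and 1 UMIs, to 6.41. No paired analysis was possible because each group has 1 library, and no replicate could be left out.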
